A study of Homo sapiens with 6 samples.

Results

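TFPI2, PLAT and PLAUR encode an inhibitor, an activator and a receptor of the plasmin system. They were followed as 3 genes out of 51447 distinct gene names in a table of transcript levels. The levels came from NCI-H460, a long-established cell line grown from a human large cell carcinoma of the lung, and the libraries differed in the guide RNA that the cells carried. The 3 genes were selected on their measured levels in these same libraries, with the differences between the guides known. Their own values are therefore given as a description, with no test.

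All cells had been infected with a lentiviral vector for KRAB-dSpCas9, a catalytically dead Cas9 fused to a repressor domain that lowers transcription of the gene it is guided to. The sg2 and sg1 cells, labelled as CPT1 knockdown, each carried a different guide against CPT1, the carnitine palmitoyltransferase that passes long-chain fatty acids into mitochondria. The sgNTG cells, labelled WT, carried a nontargeting guide and the same vector, so the Cas9 repressor is shared by all groups. Selection with puromycin at 2 μg/ml began 48 h after infection and was maintained, and each group had 2 libraries, 6 in all. The labels leave unsaid if cells were clones and if the libraries in a group are separate cultures. The p-values therefore measure only how far these libraries spread, and that spread may be technical. The CPT1 transcripts were not analysed here.

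Plasmin is a serine protease that dissolves fibrin and also cleaves matrix proteins and activates other proteases around cells. It is made from plasminogen by a pair of activators, tissue-type (PLAT) and urokinase-type (PLAU). Urokinase works largely while bound to PLAUR, a receptor held in the outer membrane by a lipid anchor. TFPI2 is a secreted Kunitz-type inhibitor that settles in the matrix and blocks plasmin, trypsin and some other serine proteases. In tumours the system is studied mainly for its part in invasion.

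Values are FPKM, a gene's fragment count divided by transcript length and by the library's mapped total, so levels can be compared between genes. Absolute depth is unknown. The value that recurred most in genes of one fixed short length, taken as that of 1 read, gave relative depths of 0.932 and 0.906 for sg2, 0.937 and 0.972 for sg1, and 0.853 and 1.0 for sgNTG. Across genes the libraries correlated at Pearson r of 0.991 to 0.992 within groups and 0.988 to 0.991 between groups. The epithelial keratins KRT18 (87.4 to 102 FPKM) and KRT19 (140.5 to 179 FPKM) and the mesenchymal filament gene VIM (628 to 696 FPKM) were expressed. Of 4 lung lineage markers the table used here lists 2, NKX2-1, which was listed at 0 in 5 libraries, and TP63, which reached 0.135 FPKM, so they give no check of the labelled lung origin. Of the genes that mark other cells, the fibroblast collagen COL1A2 was listed at 0 in 5 libraries while the matrix protein gene LUM had 44.6 to 49.7 FPKM, and the monocyte genes CD14 and CD68 had 8.26 to 11.9 and 21.5 to 26.5 FPKM.

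TFPI2 was among the most abundant transcripts of the cells. It measured 1619.7 and 1611.3 FPKM in sg2 cells, 1189.7 and 1221.0 FPKM in sg1 cells, and 1370.8 and 1396.4 FPKM in sgNTG cells. Both sg2 libraries lay above both sgNTG libraries, both sg1 libraries lay below them, and no groups overlapped. The group means were 1615.5 ± 5.94 FPKM with sg2, 1205.3 ± 22.15 with sg1 and 1383.6 ± 18.13 with sgNTG (SD, n = 2 each). Differences are given on the log2(FPKM + 1) scale with the standard error of the limma fit. They were 0.42 (SE 0.0236) for sg2 minus sg1, 0.22 for sg2 minus sgNTG and -0.20 for sg1 minus sgNTG. Thus the sg2 mean was 134% of the sg1 mean and 117% of the sgNTG mean, and the sg1 mean was 87.1% of the sgNTG mean. By its mean over the 6 libraries TFPI2 held place 12 among the 8887 genes tested, those with a mean of at least 1 FPKM, and its place in single libraries ran from 11 to 16.

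The gene for TFPI2 lies on the minus strand of chromosome 7 (93885396 to 93890991, GENCODE 29, build hg38), with up to 5 exons. It lies inside the span of GNGT1, a G protein gamma subunit gene on the opposite strand (93591573 to 93911265). The strand setting of the counting is not given in the sources used here, and without strand the reads of the overlap cannot be told apart. GNGT1 itself measured 0.933 and 1.04 FPKM with sg2, 0.904 and 1.30 with sg1, and 1.24 and 1.13 with sgNTG, far below TFPI2.

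The RefSeq promoter table matched TFPI2 and PLAUR, and a PLAT window was not analysed here. The pair of windows is shown because both hold a match to TGANTCA, searched on both strands. This string is a loose form of the AP-1 motif, as N can be any base. The middle base is A in TFPI2 (TGAATCA) and G in PLAUR (TGAGTCA), and a stricter form was not searched. AP-1 is the family of FOS and JUN transcription factors, known regulators of urokinase-system genes. Each window runs from 250 bases before to 50 bases after the RefSeq start (build GRCh38.p14), 5′ to 3′ on the gene's own strand, with the match in capitals. The TFPI2 window is chr7:93890704-93891003 and the PLAUR window is chr19:43670120-43670419, both on the minus strand. The GENCODE genes begin 238 and 378 bases farther upstream.
TFPI2: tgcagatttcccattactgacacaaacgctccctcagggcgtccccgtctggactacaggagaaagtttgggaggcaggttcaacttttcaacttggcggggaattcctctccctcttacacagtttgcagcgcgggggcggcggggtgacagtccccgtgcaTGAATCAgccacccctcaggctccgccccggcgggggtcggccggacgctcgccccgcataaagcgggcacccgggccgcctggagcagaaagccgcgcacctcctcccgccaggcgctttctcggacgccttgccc
PLAUR: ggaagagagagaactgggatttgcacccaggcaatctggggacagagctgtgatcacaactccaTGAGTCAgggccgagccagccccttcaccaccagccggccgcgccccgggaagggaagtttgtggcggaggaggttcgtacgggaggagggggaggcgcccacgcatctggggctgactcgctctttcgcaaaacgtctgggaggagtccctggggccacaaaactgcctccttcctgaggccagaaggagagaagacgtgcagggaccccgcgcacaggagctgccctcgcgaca

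The match in TFPI2 spans positions -87 to -81 from the start and that in PLAUR -186 to -180. Of 27305 RefSeq promoter windows of this length, 7.76% held such a match, and 4.71% of the 5748 windows of tested genes did. Among genes that passed the test between the guides, TFPI2, PLAT and PLAUR left out, it was found in 2 of 27 windows of genes higher with sg2 and in 1 of 38 windows of genes lower with sg2. The GC box GGGCGG matched at 2 places in TFPI2, -114 to -109 and -65 to -60, and at none in PLAUR. At least 1 match was held by 44.6% of all windows and by 70.7% of the windows of tested genes. The TATA box, searched as TATAAA, was found in 3264 of the 27305 windows, in 328 of the 5748 of tested genes and in neither of the pair. Neither of the pair held the CCAAT box, found in 35.7% of all windows and 36.3% of those of tested genes. The E box, searched as CACGTG, was also in neither, against 7.43% of all windows and 9.93% of those of tested genes. The motifs searched do not overlap within either window. The TFPI2 window had 65.3% G and C and 26 CG steps, and the PLAUR window 64.0% and 18, against a median of 58.3% G and C over all windows. A match is a string of letters in this window and does not show that a factor binds there.

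PLAT, the tissue-type activator, had the widest relative range of the 3 genes. It measured 204.35 and 216.07 FPKM in sg2 cells, 137.73 and 130.61 FPKM in sg1 cells, and 170.83 and 177.95 FPKM in sgNTG cells. Again sg2 libraries were highest, sg1 libraries lowest, and no groups overlapped. The means were 210.21 ± 8.29 FPKM with sg2, 134.17 ± 5.03 with sg1 and 174.39 ± 5.03 with sgNTG (SD, n = 2 each). The log2 difference was 0.64 (SE 0.0447) for sg2 minus sg1, 0.27 for sg2 minus sgNTG and -0.38 for sg1 minus sgNTG. The sg2 mean was 157% of the sg1 mean. PLAT lies on the minus strand of chromosome 8 (42175233 to 42207724), with 12 annotated transcripts and up to 15 exons, and held place 182 by its mean level.

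PLAUR, the urokinase receptor, differed much less. It measured 253.03 and 246.99 FPKM in sg2 cells, 225.83 and 229.86 FPKM in sg1 cells, and 231.31 and 235.68 FPKM in sgNTG cells. The order of the groups was the same, but the lower sgNTG library was only 1.45 FPKM above the higher sg1 library, less than the distance between the libraries of either group. The lower sg2 library was 11.3 FPKM above the higher sgNTG library. Means were 250.01 ± 4.27 FPKM with sg2, 227.85 ± 2.85 with sg1 and 233.49 ± 3.09 with sgNTG (SD, n = 2 each). The log2 difference was 0.13 (SE 0.0297) for sg2 minus sg1, 0.10 for sg2 minus sgNTG and -0.04 for sg1 minus sgNTG. The sg2 mean was 110% of the sg1 mean. PLAUR lies on the minus strand of chromosome 19 (43646095 to 43670547), with 16 annotated transcripts and up to 7 exons, and held place 131.

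**Figure D1:**
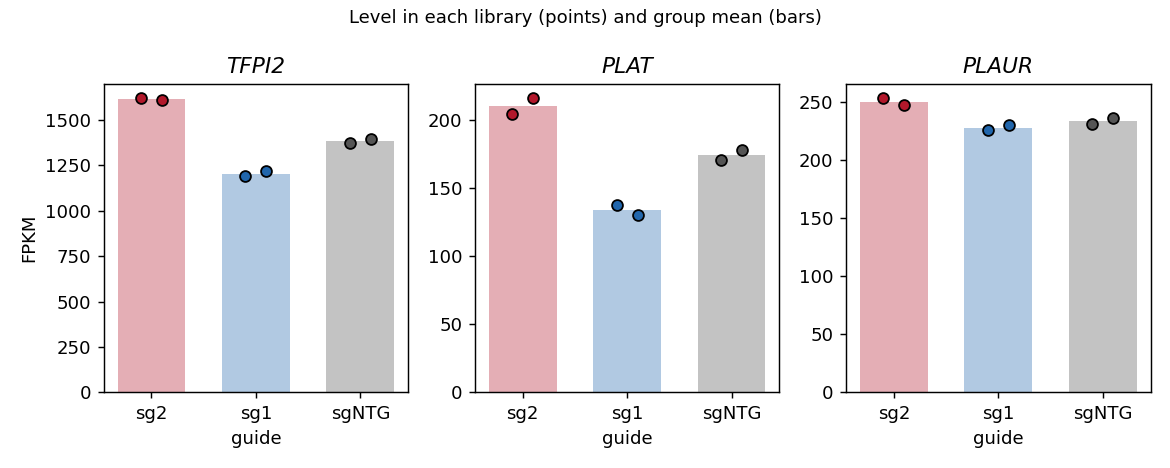
FPKM of TFPI2, PLAT and PLAUR (vertical axes, from 0) by guide, with a point for each of the 2 libraries of a group and a bar for the group mean. In each panel both sg2 points lie above both sgNTG points and both sg1 points below them; in PLAUR the sg1 and sgNTG points lie 1.45 FPKM apart at the nearest.

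The count of 3 genes in the order sg2 over sgNTG over sg1 with no overlap was fixed by how they were chosen. Of all genes, 377 of the 8887 tested genes (4.24%) stood in that order and 367 (4.13%) in the reverse order. Genes with both sg2 libraries above both sg1 libraries made up 24.4% of those tested, and the reverse 24.2%. Those with sg2 above sgNTG made up 22.3%, and those with sg1 below sgNTG 18.9%. By the absolute sg2 minus sg1 difference PLAT held place 80, TFPI2 place 294 and PLAUR place 3286 of the 8887. Both guides were set against the same sgNTG libraries, so their differences from sgNTG are not independent of each other. Averaged over both guides, the differences from sgNTG were 0.01 (SE 0.0204) for TFPI2, -0.05 (SE 0.0387) for PLAT and 0.03 (SE 0.0258) for PLAUR, in log2 units. With 1 library left out they ran from -0.0011 to 0.0257, -0.0833 to -0.0248 and 0.0181 to 0.0449.

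**Figure D2:**
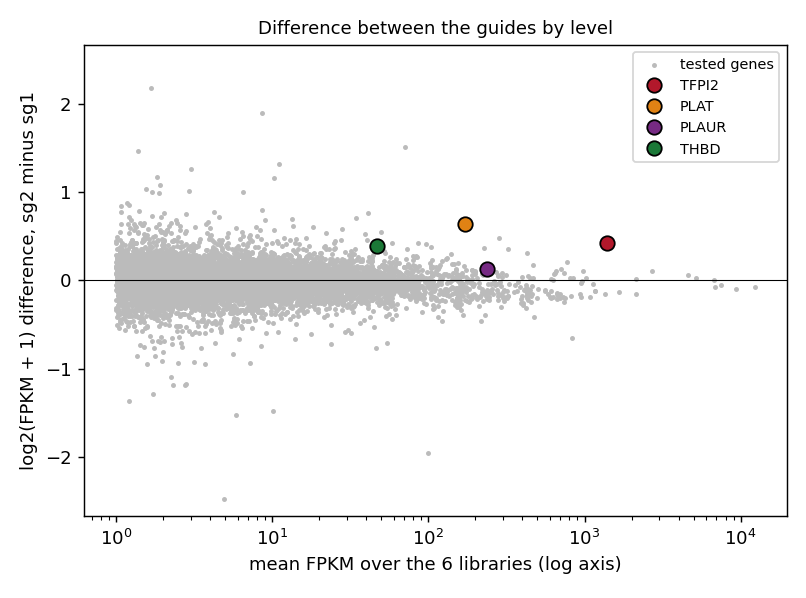
Difference between the guides (vertical axis, log2(FPKM + 1), sg2 minus sg1) against the mean FPKM over the 6 libraries (horizontal log axis) for the 8887 tested genes in grey. TFPI2 (0.42), PLAT (0.64) and the thrombin receptor gene THBD (0.39) lie above most genes of like level, and PLAUR (0.13) lies nearer to 0.

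On the FPKM scale the order TFPI2 over PLAUR over PLAT held in every library. The level of TFPI2 over that of PLAT was 7.93 and 7.46 with sg2, 8.64 and 9.35 with sg1, and 8.02 and 7.85 with sgNTG. This ratio was higher in both sg1 libraries than in any other, and the sg2 and sgNTG libraries overlapped. The level of TFPI2 over that of PLAUR was 6.40 and 6.52 with sg2, 5.27 and 5.31 with sg1, and 5.93 in both sgNTG libraries. The level of PLAT over that of PLAUR was 0.808 and 0.875 with sg2, 0.610 and 0.568 with sg1, and 0.739 and 0.755 with sgNTG. Both of these ratios separated the groups in the order of the genes themselves.

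Other quantities moved between the guides as well, and their part in the differences of the 3 genes was not tested. The FPKM of a library summed to 253075 and 251704 with sg2, 258618 and 260500 with sg1, and 255783 and 253619 with sgNTG. The 47 ribosomal protein genes listed took 4.61% and 4.69% of that sum with sg2, 5.11% and 5.05% with sg1, and 4.91% and 4.85% with sgNTG. With libraries rescaled to the same sum, the sg2 minus sg1 difference was 0.46 for TFPI2, 0.68 for PLAT and 0.17 for PLAUR. The 3 epithelial markers of 5 that the table lists summed to 228 to 234 FPKM with sg2, 271 to 277 with sg1 and 242 to 245 with sgNTG, against the direction of the 3 genes, with CDH1 at 0.105 FPKM or less. VIM, the mesenchymal marker listed of 3, had 674 to 696 FPKM with sg2, 631 to 638 with sg1 and 628 to 656 with sgNTG. KDR, the endothelial marker listed of 4, had 2.32 to 2.41 FPKM with sg2, 1.63 to 1.76 with sg1 and 1.82 to 2.06 with sgNTG. In such bulk samples fewer cells of a kind and less RNA per cell cannot be told apart.

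The surrounding pathway was described with a list of 106 further genes grouped by role, of which the table used here lists 69 and 40 passed the filter of 1 FPKM. The list was taken from the roles of the genes, but with earlier results of these data known. Between the guides 1 of the 40, THBD, passed the test over all genes and none was lower past it. Of all 8887 tested genes 1.29% passed in either direction and 0.518% were higher with sg2. The balance of those calls turned with the scaling. It was 46 higher and 69 lower in the values as deposited, 55 and 24 with libraries rescaled to the same sum, and 59 and 26 with quantile normalization. Against sgNTG no gene of the list passed with sg2, with sg1 or with the mean of both guides, and 0.0225%, 0.0113% and 0.0113% of all tested genes did. In those comparisons 7, 7 and 4 of the 40 lay under an unadjusted limma p of 0.05, where 9.61%, 9.92% and 6.3% of all tested genes did. Between the guides 12 of the 40 did, 8 higher and 4 lower with sg2, beside 17% of all tested genes. The median sg2 minus sg1 difference was 0.0467 over the 40 genes, beside 0.0016 over all tested genes. Without sg2 replicate 1 the median of the 40 was 0.0040. In 15 of the 40 genes (37.5%) both sg2 libraries lay above both sg1 libraries, and in 8 they lay below, beside 24.4% and 24.2% of all tested genes.

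THBD encodes thrombomodulin, a cell surface receptor that turns thrombin from clotting towards activation of protein C. It measured 54.96 and 51.99 FPKM in sg2 cells, 39.25 and 41.66 FPKM in sg1 cells, and 46.78 and 47.35 FPKM in sgNTG cells, so the groups stood in the order of the 3 genes with no overlap. It was 1.31-fold higher with sg2 than with sg1 (log2 difference 0.39, SE 0.0488, limma adjusted p = 0.0338), and higher in 2 of 2 sg2 libraries. THBD lies on the minus strand of chromosome 20 (23045633 to 23049741). The call was made in 7 of 17 alternative settings, with limma adjusted p from 0.0176 to 0.177. It was lost without each of the 6 libraries in turn (0.0711 to 0.169), without a variance trend (0.170), without a filter (0.177), with a replicate block (0.0793) and in a fit of the 4 libraries compared (0.0708).

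Of 4 activators beside PLAT the table used here lists 1, F11, at 0 in all 6 libraries. Of 10 inhibitors beside TFPI2 it lists 5, and 2 of these passed the filter of 1 FPKM. The urokinase gene PLAU itself and the activators KLKB1 and F12 were not analysed here. The same holds for the inhibitors SERPINB2, SERPINE2, SERPINI1, A2M and SPINT2. SPINT1, a Kunitz-type inhibitor held in the membrane, had a mean of 4.47 FPKM and a sg2 minus sg1 difference of 0.12 that did not pass the test (limma adjusted p = 0.742). Plasminogen (PLG) was listed at 0 in 5 libraries, the plasmin inhibitor SERPINF2 reached 0.120 FPKM, and of the membrane serine proteases only DPP4 (mean 3.46 FPKM) passed the filter. An exact 0 in such a table can be a failed estimate and is not read as absence.

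**Figure D3:**
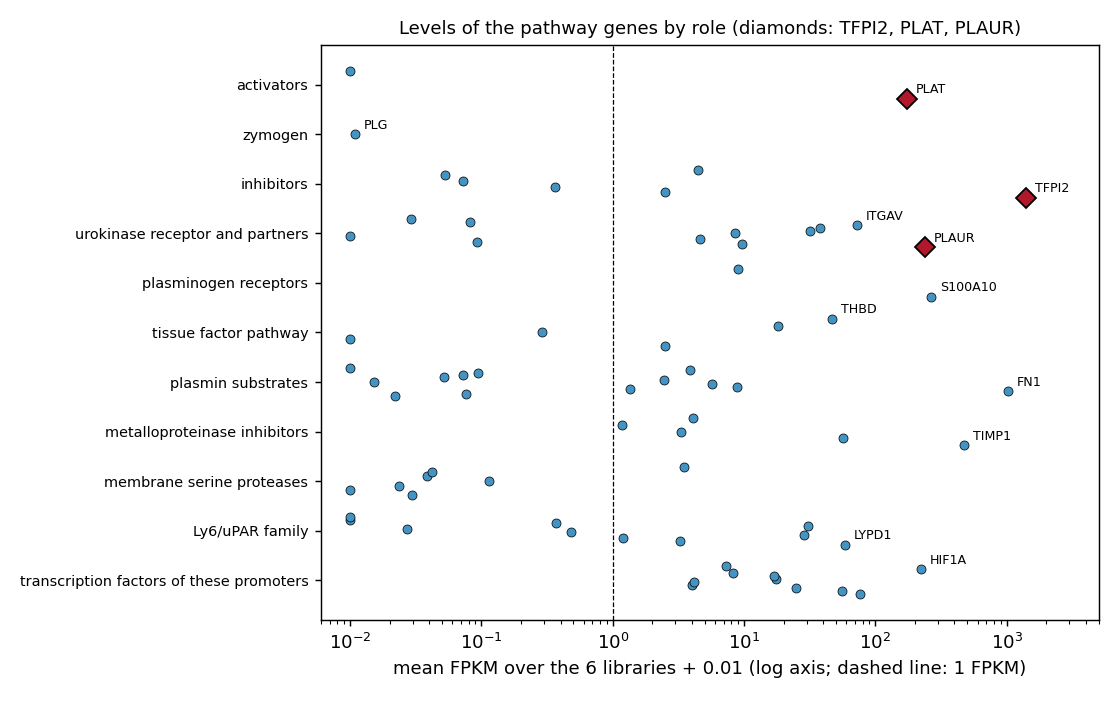
Mean FPKM over the 6 libraries plus 0.01 (horizontal log axis) of each listed pathway gene, one point a gene, in a row for each role, with a dashed line at 1 FPKM. TFPI2, PLAT and PLAUR (diamonds) are the highest of their rows, where the row of PLAT holds only F11 besides. FN1, TIMP1 and S100A10 are the highest of other rows, while PLG lies at the low end.

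Of the receptors and surface partners of PLAUR, 6 were tested and none passed. The integrin ITGA5, part of the fibronectin receptor, had 41.8 and 41.2 FPKM in sg2 cells, 35.1 and 35.7 FPKM in sg1 cells, and 36.5 and 37.0 FPKM in sgNTG cells. It stood in the order of the 3 genes, and its sg2 minus sg1 difference was 0.22 (SE 0.0397, limma adjusted p = 0.0643). With a filter of 5 FPKM in place of 1 it passed (limma adjusted p = 0.0380), and it passed in no other setting tried. Its promoter window also held a match to the loose AP-1 form (TGAGTCA), at -6 to 1 from the start. ITGAV, the vitronectin receptor subunit, had a difference of 0.15 and the scavenger receptor LRP1, which clears activator and inhibitor complexes, of 0.06, while caveolin CAV1 had one of -0.17. The limma adjusted p of these genes ran from 0.186 to 0.718. S100A10, which helps to dock plasminogen and PLAT on cells, measured 262.37 and 265.02 FPKM in sg2 cells, 262.73 and 266.13 FPKM in sg1 cells, and 262.50 and 265.66 FPKM in sgNTG cells. Its groups overlapped fully (log2 difference -0.004, SE 0.0269). The plasminogen receptor PLGRKT had a mean of 8.95 FPKM and a difference of 0.13.

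Substrates and downstream proteases did not pass either. FN1, fibronectin, had the highest level of the 40 pathway genes, with 1016.0 and 1021.2 FPKM in sg2 cells, 988.46 and 1010.1 FPKM in sg1 cells, and 1019.2 and 1038.7 FPKM in sgNTG cells. Its sg2 minus sg1 difference was 0.03 (SE 0.0237, limma adjusted p = 0.607). The latent growth factor binder LTBP1, the growth factor PDGFC and the stromelysin MMP10 had differences of 0.11, -0.07 and 0.09. Thrombospondin THBS1, named after its values were seen, had 1.84 and 1.65 FPKM in sg2 cells, 1.05 in both sg1 libraries, and 1.24 and 1.20 FPKM in sgNTG cells (log2 difference 0.42, limma adjusted p = 0.139).

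The inhibitors of matrix metalloproteinases were led by TIMP1, with 482 and 475 FPKM in sg2 cells, 463 and 472 FPKM in sg1 cells, and 469 and 465 FPKM in sgNTG cells. TIMP2 had 60.6 and 58.9 FPKM in sg2 cells, 53.9 and 52.8 FPKM in sg1 cells, and 57.8 and 56.9 FPKM in sgNTG cells, in the order of the 3 genes. The sg2 minus sg1 differences were 0.03 for TIMP1, 0.16 for TIMP2 (SE 0.0382), 0.24 for TIMP3 and -0.03 for RECK, with limma adjusted p from 0.114 to 0.874. In all, 4 of the 40 pathway genes (10.0%) stood in that order, THBD, ITGA5, THBS1 and TIMP2, and none in the reverse order. The shares over all tested genes were 4.24% and 4.13%. As the list was chosen with earlier results of these data known, these shares are a description, with no test.

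In the list THBD shared a role with genes of tissue factor and thrombin, and the other tested genes of that role did not pass. The thrombin receptor F2R averaged 18.1 FPKM with a sg2 minus sg1 difference of -0.02, and tissue factor F3 averaged 2.49 FPKM with a difference of -0.05. Of the family that shares the PLAUR fold, LYPD1 (mean 58.7 FPKM, difference -0.11), the complement inhibitor CD59 (30.7 FPKM, 0.04), LY6E (28.7 FPKM, -0.06) and LYPD3 (3.26 FPKM, 0.21) had the highest levels. None of the 5 members tested passed (limma adjusted p from 0.294 to 0.985).

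Transcription factors known for urokinase-system promoters included 3 AP-1 subunits with sg2 minus sg1 differences below 0, though none of the 10 factors tested passed. FOS had 75.0 and 72.5 FPKM in sg2 cells, 88.3 and 82.3 FPKM in sg1 cells, and 68.3 and 68.1 FPKM in sgNTG cells. Its difference was -0.21 (SE 0.0453, limma adjusted p = 0.0996). JUNB had 54.1 and 52.7 FPKM in sg2 cells, 62.0 and 59.8 FPKM in sg1 cells, and 52.5 and 54.0 FPKM in sgNTG cells (-0.19, limma adjusted p = 0.0987). JUND had a difference of -0.25 (limma adjusted p = 0.158) and HIF1A, the factor of the low oxygen response, of 0.06 with overlapping libraries. In FOS and JUNB both sg1 libraries lay above all others; the sg2 libraries lay above the sgNTG libraries in FOS and overlapped them in JUNB. FOSL1 and JUN were not analysed here.

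**Figure D4:**
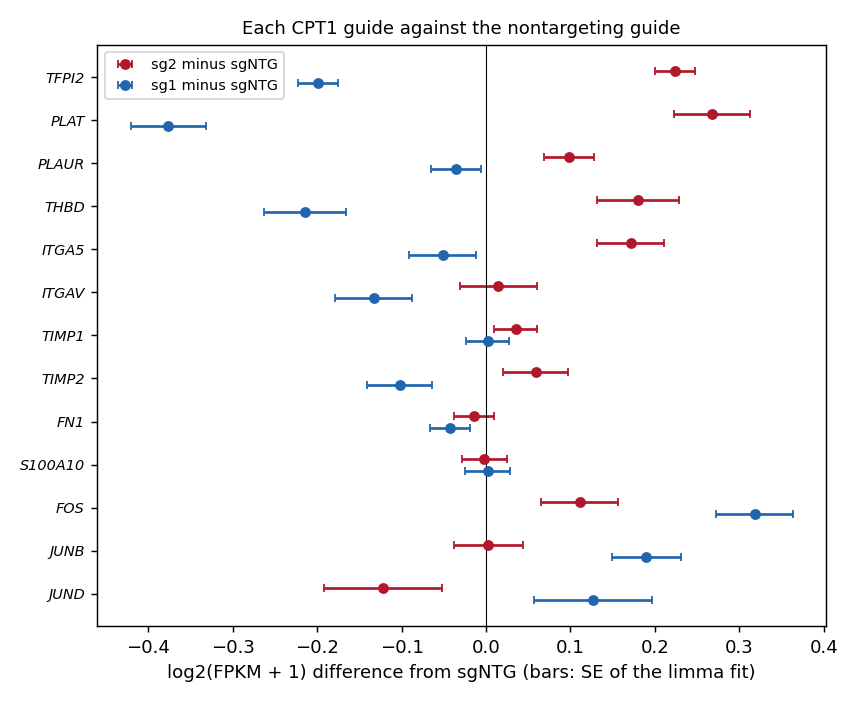
Log2(FPKM + 1) difference from sgNTG (horizontal axis) with sg2 in red and sg1 in blue, with bars for the SE of the limma fit, for TFPI2, PLAT, PLAUR and 10 pathway genes. TFPI2, PLAT and THBD lie on opposite sides of 0 with the 2 guides, S100A10 and FN1 lie near 0 with both, and FOS has 0.11 with sg2 and 0.32 with sg1.

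Genes near the 3 loci were not used to choose them. Within 250 kb of the gene bodies 13 other genes are annotated by TFPI2, 14 by PLAT and 28 by PLAUR. The table used here lists 9, 9 and 20 of them. Of these 16 were tested, 4 by TFPI2, 4 by PLAT and 8 by PLAUR, so the loci are covered only in part. Between sg2 and sg1 none of the 16 passed in limma's fit, beside 1.29% of all tested genes, and 2 lay under an unadjusted p of 0.05, beside 17%. Their differences ran from -0.31 to 0.32. None stood in the order of the 3 genes, as 4.24% of all tested genes did. The G protein gamma subunit gene GNG11, 30.7 kb from TFPI2, measured 41.1 and 38.9 FPKM in sg2 cells, 42.5 and 42.8 FPKM in sg1 cells, and 40.8 and 42.0 FPKM in sgNTG cells. The long noncoding gene ENSG00000236453, 132 kb from TFPI2 (chromosome 7, 94022833 to 94066661), measured 157 and 159 FPKM in sg2 cells, 137 and 139 FPKM in sg1 cells, and 135 and 145 FPKM in sgNTG cells. Its sg2 libraries lay above all others (log2 difference from sg1 0.19, SE 0.0418, limma adjusted p = 0.0995). IKBKB, a kinase of the NF-kB pathway 63.6 kb from PLAT, had 18.1 and 17.9 FPKM in sg2 cells, 15.7 and 14.4 FPKM in sg1 cells, and 15.5 and 17.3 FPKM in sgNTG cells (0.25, limma adjusted p = 0.165). CADM4, an adhesion molecule gene 6.26 kb from PLAUR, had a difference of -0.03. The other tested neighbours by TFPI2 were GNGT1 (-0.07) and ENSG00000236938 (0.25). Those by PLAT were KAT6A (0.16), RPL5P23 (0.32) and SLC20A2 (0.04). Those by PLAUR were LYPD3 (0.21), IRGQ (0.09), ZNF576 (-0.16), ZNF428 (-0.31), SMG9 (0.16), ZNF283 (0.02) and ZNF45 (-0.05).

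**Figure D5:**
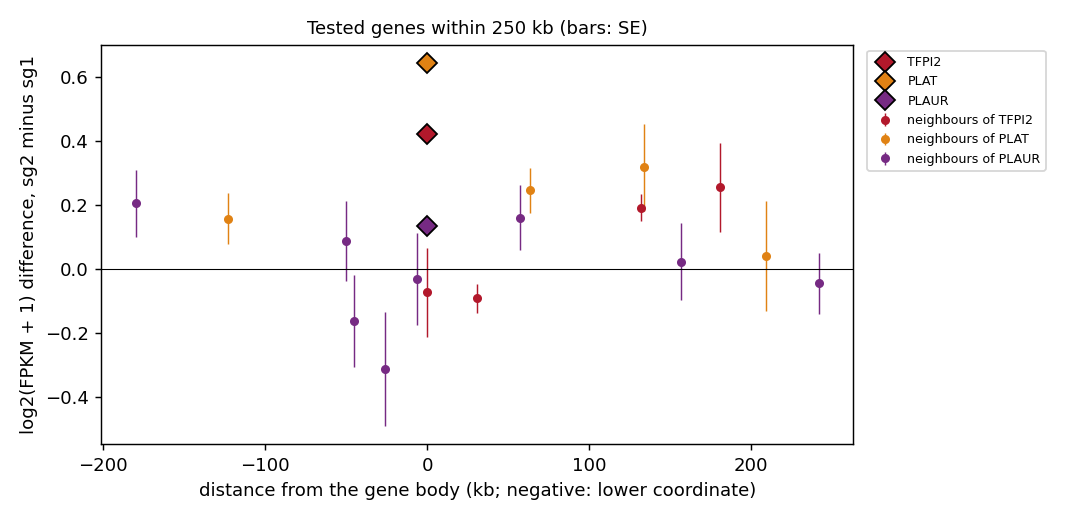
Log2(FPKM + 1) difference, sg2 minus sg1 (vertical axis, bars for SE), of the 16 tested neighbours against their distance from the gene body in kb. The neighbours lie between -0.31 and 0.32, below TFPI2 (0.42) and PLAT (0.64), and on both sides of PLAUR (0.13).

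Genes with the most similar profiles over the 6 libraries were found by the root mean square difference between standardized log2 values, where the median gene differed from TFPI2 by 1.28. With 8887 genes and 6 libraries some close matches are found for any gene, so these are a description. For TFPI2 they were PAPPA (0.0310), a secreted protease of growth factor binding proteins, then STC1 (0.0645), a secreted glycoprotein, SLC35B4 (0.0676), a sugar nucleotide transporter, RASA3 (0.0771), a GTPase activator, and ZC3H12C (0.0962), a zinc finger protein. PAPPA measured 28.71 and 28.72 FPKM in sg2 cells, 20.83 and 21.37 FPKM in sg1 cells, and 24.43 and 24.65 FPKM in sgNTG cells. It was also the nearest when size counted as well as shape, followed by ZC3H12C and PCDH9. STC1 measured 332 and 334 FPKM in sg2 cells, 237 and 241 FPKM in sg1 cells, and 281 and 287 FPKM in sgNTG cells.

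For PLAT the nearest in shape were the acyltransferase LPGAT1 (0.0773), the desmosome protein DSP (0.116), the membrane glycoprotein CDCP1 (0.125), PLEKHH2 (0.131) and the sterol transfer protein GRAMD1B (0.137). With size counted they were the scaffold AKAP12, the receptor kinase INSRR and ENSG00000279789. CDCP1 measured 46.0 and 47.0 FPKM in sg2 cells, 33.3 and 34.0 FPKM in sg1 cells, and 40.3 and 40.7 FPKM in sgNTG cells. For PLAUR they were LINC00294 (0.101), the glucosylceramidase GBA2 (0.113), NOP9 (0.114), TMEM170B (0.129) and TBRG4 (0.131), and with size counted TBRG4, TMEM170B and INTS3. Of the 3 genes themselves, PLAT held place 43 and PLAUR place 118 in likeness to TFPI2, at 0.200 and 0.274. PLAT and PLAUR were less alike, at 0.448. As the 3 genes were selected on these same values, their likeness to each other was partly fixed by the choice.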

How the data were processed

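RNA of 6 NCI-H460 libraries was extracted with TRIzol and captured on mRNA beads, per the labels' protocols. STAR and StringTie were used with build hg38, per the submitters' processing notes. No version, annotation, filter or strand setting is given there. FPKM values were deposited as 1 table, with 1 column per library matched by name. Of its 52807 rows, 32 that repeated another with values above 0 were dropped.

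From these values, log2(FPKM + 1) of 8887 genes averaging 1 FPKM or more was fitted with limma 3.58.1 in R 4.3.3 (1 mean per group, all 6 libraries, variance trend, no block), two-sided, with Benjamini-Hochberg adjustment over all tested genes and a threshold of 0.05. The fold scale understates changes of low genes. The fit was tested on simulated data for sg2 against sg1. It recovered 10.9% of changes of 0.25 on the log2 scale, 44.2% of 0.5, 81.4% of 1 and 95.1% of 2. A gene that did not pass is therefore not shown to be unchanged. Positions are from GENCODE 29, promoters from RefSeq. The 3 genes, the pathway list and the tests were chosen with earlier results of these data known. Named were the 3 genes, pathway genes that passed, up to 4 tested genes of highest level per role, neighbours within 250 kb and the 5 genes (3 with size counted) of most similar profile; 1 gene under this rule is not reported here. Alternatives covered pseudocount, filter, scaling, trend, block, libraries fitted and each library left out.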

Additional observations from a re-analysis of the deposited data

Results flagged for a closer look

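The difference between the guides ran in opposite directions from sgNTG in TFPI2, PLAT and PLAUR: both sg2 libraries lay above, and both sg1 libraries below, both sgNTG libraries. Of all tested genes 4.24% stood in this order. In PLAUR the sg1 minus sgNTG difference was only -0.04 (SE 0.0297), and the nearest libraries of these groups lay 1.45 FPKM apart. The log2 differences, sg2 minus sg1, were 0.422 for TFPI2, 0.644 for PLAT and 0.133 for PLAUR. These differences were not tested, since the genes were selected on such values. THBD is given because its change with sg2 differed from that with sg1 in the fit over all genes, by 0.394 on the log2 scale (limma adjusted p = 0.0338).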

How the results depend on the processing

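The log2 differences of TFPI2, PLAT and PLAUR for sg2 against sg1 and for each guide against sgNTG kept their sign in the alternatives that can move them, which were the pseudocounts, the scalings and the omission of a library of either group compared. Filter, trend, robust fit and block leave a difference of group means as it is. With libraries rescaled to the same sum, sg1 minus sgNTG was -0.226 for TFPI2 and -0.0623 for PLAUR, and sg2 minus sg1 was 0.46 for TFPI2 and 0.17 for PLAUR. With quantile normalization PLAUR had -0.10 for sg1 minus sgNTG, 0.13 for sg2 minus sgNTG and 0.23 for sg2 minus sg1, and PLAT had 0.72 for sg2 minus sg1. Leaving out each library in turn gave sg2 minus sg1 differences of 0.404 to 0.441 for TFPI2, 0.604 to 0.684 for PLAT and 0.116 to 0.151 for PLAUR. Averaged over both guides against sgNTG, the range was -0.0011 to 0.0257 for TFPI2, negative without sgNTG replicate 1, -0.0833 to -0.0248 for PLAT and 0.0181 to 0.0449 for PLAUR.

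The pathway median for sg2 minus sg1 was 0.0809 with libraries rescaled to the same sum, where the median of all tested genes was 0.0353, and 0.0744 without the transcription factors, an alternative chosen after seeing the data. It ran from 0.0040 (without sg2 replicate 1) to 0.0698 with 1 library left out. For sg1 minus sgNTG it was -0.0267 with rescaled libraries, and for sg2 minus sgNTG -0.0114 with a filter of 5 FPKM. The number of pathway genes called between the guides was 2 with that filter, and 0 without a filter, without a trend, with the replicate block, with only the 4 libraries compared and without any 1 library (0 to 0).

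Over all genes, the calls of sg2 against sg1, 115 in the fit reported, were 217 with a filter of 5 FPKM, 26 with the 4 libraries compared, 5 with the replicate block and 0 without a filter or a trend. With 1 library left out they were 4 to 26. A fit with fewer libraries or with the replicate block also has fewer degrees of freedom. The cause of the changes in calls was not tested for any setting. Of sg2 against sgNTG, 2 calls became 0 without a filter, with median-of-ratios scaling, quantile normalization, no trend, robust limma, the block or 4 libraries, and 0 to 5 with a library left out. Of sg1 against sgNTG, 1 call became 0 without a filter, without a trend or with the block, and 1 to 6 with a library left out. Of both guides, 1 call became 0 in the same 3 settings, and 0 to 7 with a library left out. The labels leave unsaid if libraries with the same replicate number were handled together. Deviations of same-numbered libraries correlated at 0.0603, -0.0276 and 0.0343 between groups, which cannot show if they were paired. Depth per library is known only in relative terms, and 2 libraries a group limit every spread.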
